A study of Mus musculus with 16 samples.

Results

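The joint effect of α-synuclein fibrils and microglia on cultured mouse neurons was measured by setting 4 libraries of fibril-loaded neurons kept with microglia against 4 libraries of untreated neurons kept alone, 8 of the 16 libraries of the series. The libraries were chosen by their titles alone. All neurons were primary cortical neurons of C57BL/6 embryos taken at embryonic day 15 to 16 and grown for 14 days. The loaded co-cultures had received 0.1 µM α-synuclein fibrils carrying the dye Atto488 for 16 h, were washed, and were then kept for 6 h with microglia, the phagocytes of brain tissue. Untreated neurons alone received neither. The single conditions, each in 4 libraries, served to place the joint change: loaded neurons alone had the same fibrils and no microglia, and untreated co-cultures had microglia and no fibrils. Messenger RNA was read at its 3′ ends. The labels name neurons as the cell type of every library and leave out how the neurons were separated from the microglia, which strain or age the microglia had, and whether the 4 libraries of a group came from separate cultures. The p-values therefore rest on library-to-library spread, and this may be technical spread only.

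α-Synuclein is an abundant protein of presynaptic terminals that forms fibrils in Parkinson's disease, and neurons can take up such fibrils and pass them to neighbouring cells. Microglia take up aggregated protein and debris, and exchange material with neurons by contact. Cortical cultures of this kind can also hold glia: the oligodendrocyte lineage, which makes myelin and runs from dividing Pdgfra-positive precursors through Gpr17- and Bcas1-expressing committed cells to mature myelin-forming cells, and astrocytes. In bulk RNA, fewer cells of a type and less RNA per cell cannot be told apart.

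Total counts were 6511516 to 13986374 in these 8 libraries. Levels are given as CPM, a gene's count as a share of the scaled library total. Libraries differed widely within groups: the correlation of log2 CPM was 0.665 to 0.753 within untreated neurons alone, 0.645 to 0.757 within loaded co-cultures, and 0.545 to 0.718 between them. Loaded co-culture replicate 1 stood apart, with microglial identity genes summing to 1519 CPM against 38.1, 90.3 and 17.4 CPM in replicates 2 to 4, and 17.0 to 58.5 CPM in untreated neurons alone. In that library 3 of the 18 microglial genes had a count of 0, against 11, 5 and 14 in the other 3 libraries. A count of 0 need not mean absence, since genes averaging at least 100 counts in the other libraries of the series were also at 0. There were 666, 396, 124 and 146 such genes in loaded co-cultures 1 to 4, and 95, 93, 301 and 486 in untreated neurons alone. P2ry12 and Tmem119, which define resting microglia, were at 0 in all 8 libraries. Csf1r, the receptor that microglia need to survive, was at 287, 0, 0.336 and 0 CPM in loaded co-cultures 1 to 4. Microglial transcripts were thus plentiful in 1 of the 4 loaded co-cultures, and the main counts of called genes are given without it as well. Untreated co-culture replicate 1 also stood apart, at 816 CPM against 25.2, 62.7 and 15.3 CPM in replicates 2 to 4 of its group. Some counts are therefore also given without replicate 1 of both co-culture groups. Neuronal identity genes were detected in every library, with at most 1 of 22 at 0.

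With fibrils and microglia combined, genes of the oligodendrocyte lineage were prominent among the called rises, and genes of neurons, synapses and glycolysis among the called falls. A gene was called where the quasi-likelihood test of edgeR gave an adjusted p under 0.05 (Benjamini-Hochberg over 13139 genes). By this rule 104 genes changed, which is 0.792% of those tested, 62 higher (0.472%) and 42 lower (0.32%), and 1745 genes (13.3%) had an unadjusted p under 0.05. Of the called genes, 102 had loaded co-culture levels that did not overlap those of untreated neurons alone, 61 higher and 41 lower, against 598 higher (4.55%) and 739 lower (5.62%) among all tested genes. The call compares the same libraries, so a lack of overlap largely follows from it and is no separate support. The absolute log2 change of the called genes had a median of 2.22. Without loaded co-culture replicate 1 the count was 33 (27 higher, 6 lower), without replicate 1 of both co-culture groups 60 (38 and 22), and it was 15 without loaded co-culture replicate 2. Leaving out an untreated library gave 13 without replicate 2, 20 without replicate 3 and 25 without replicate 4, and leaving out loaded neurons alone replicate 4 gave 169. DESeq2 called 637 genes, limma-voom 158. All 104 kept their direction in the 26 alternative settings run, and 11 were called in each of them: Abtb2, Cilk1, Cnp, Col11a1, Enpp6, Sirt2 and Sox8 higher, and Camk2n1, Ensa, Syn2 and Thy1 lower.

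All 20 oligodendrocyte-lineage genes on the list were higher in loaded co-cultures and 11 of them rose by the test, against 0.472% of all genes. This list, like those below, was chosen with earlier results of these data known, so its counts only describe it. The 20 genes had a median log2 change of 2.59. That of all tested genes was -0.05, and 47.7% of all tested genes were higher and 52.2% lower. The summed level of the list was 1190 to 2316 CPM in untreated neurons alone and 6362 to 10735 CPM in loaded co-cultures, without overlap. Loaded neurons alone had 2540 ± 711 CPM and untreated co-cultures 5951 ± 1997 CPM (SD, n = 4 each). Without loaded co-culture replicate 1, 9 of the 20 were still called. Of the 11 called, Cnp, Enpp6 and Sox8 were called in all 26 alternative settings and Olig2 in 11. Over all genes, 8 rises were called without untreated replicate 2 and 11 without untreated replicate 3. The labels name these libraries as neurons, and the part of a changed cell mixture in these values was not tested.

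**Figure D1:**
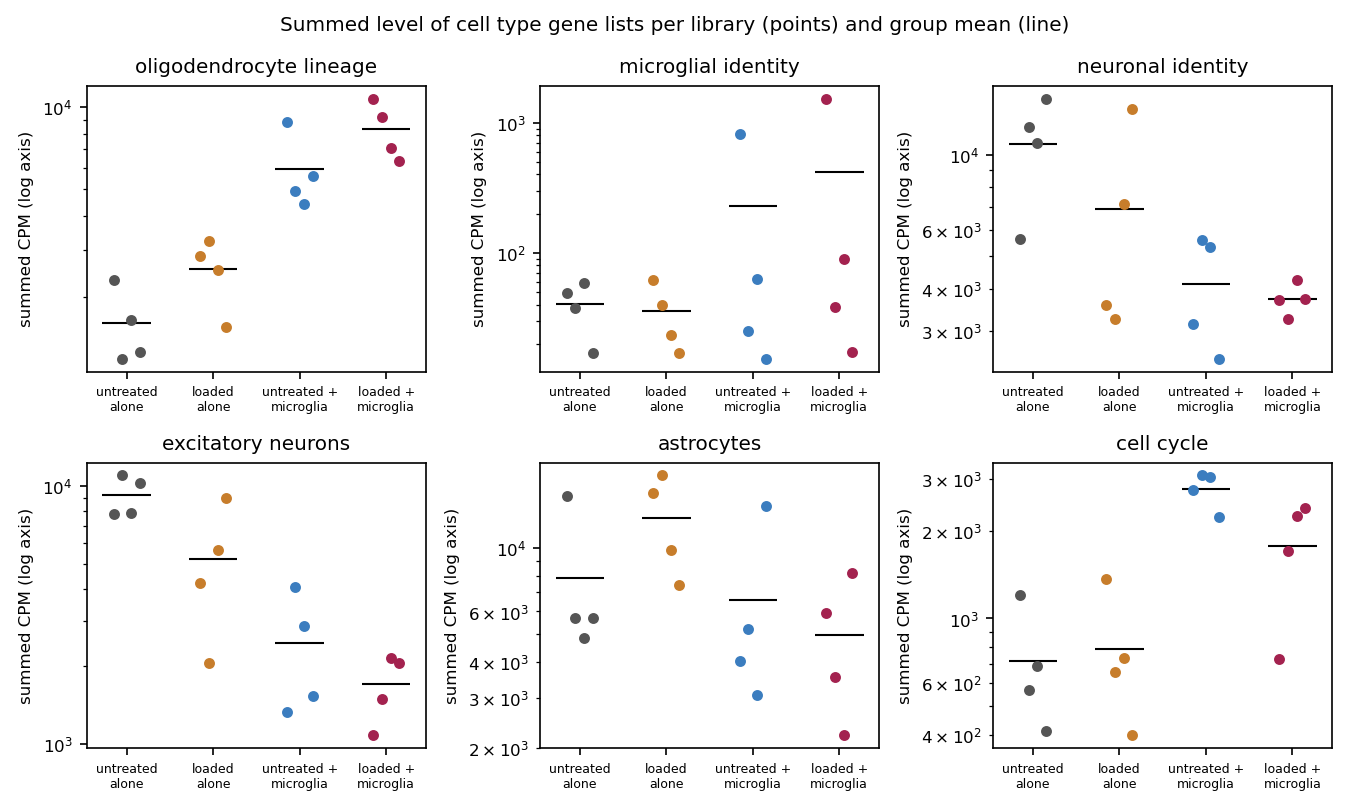
Summed CPM (log axis) of 6 gene lists in each of the 16 libraries, by group, with replicates 1 to 4 from left to right and the group mean as a line. Oligodendrocyte-lineage transcripts lie at 6362 to 10735 CPM in loaded co-cultures and 1190 to 2316 CPM in untreated neurons alone, excitatory-neuron transcripts run the other way, and 1 loaded co-culture holds 1519 CPM of microglial transcripts.

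Enpp6, a phosphodiesterase of newly forming oligodendrocytes, was at 24.5, 15.4, 10.8 and 19.1 CPM in untreated neurons alone and at 231, 132, 95.2 and 148 CPM in loaded co-cultures. Every loaded co-culture exceeded every untreated library, by a log2 change of 3.12 ± 0.46 (SE; adjusted p = 0.0018). With fibrils alone it was at 41.6, 29.7, 27.8 and 35.5 CPM and with microglia alone at 73.2, 60.5, 37.8 and 128 CPM, so that only the highest of the microglia-only libraries reached into the loaded co-culture range. Bcas1, which marks committed oligodendrocytes, was at 92.6, 98.4, 206 and 47.6 CPM in untreated neurons alone and at 1858, 964, 917 and 390 CPM in loaded co-cultures. The lowest loaded co-culture lay above the highest untreated library, and the log2 change was 3.22 ± 0.56 (adjusted p = 0.0121). Its single changes were nearly equal, 1.80 ± 0.53 with fibrils and 1.61 ± 0.53 with microglia. Cnp, a myelin enzyme, rose by 3.15 ± 0.50 (adjusted p = 0.00571) from 52.7 to 104 CPM up to 333 to 1257 CPM.

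Gpr17, a receptor of differentiating precursors, had the largest rise among the called genes other than Kif14, 3.43 ± 0.70 (adjusted p = 0.0316). It was at 91.3, 109, 197 and 134 CPM in untreated neurons alone and at 3059, 1448, 679 and 556 CPM in loaded co-cultures, which spread over a wide range above all untreated libraries. The transcription factors of the lineage rose as well: Sox8 by 3.04 ± 0.52 (adjusted p = 0.00819), Sox10 by 2.84 ± 0.58 (adjusted p = 0.0291), Olig1 by 1.93 ± 0.37 (adjusted p = 0.0137) and Olig2 by 1.99 ± 0.46 (adjusted p = 0.0417). Olig2 was at 159 CPM in loaded co-culture replicate 1, within the 122 to 271 CPM of untreated neurons alone, and at 864 to 1293 CPM in the other 3 loaded co-cultures. Pdgfra, the growth factor receptor of precursors, was at 65.3 to 120 CPM in untreated neurons alone, 22.8 to 52.2 CPM with fibrils alone, 342 to 504 CPM with microglia alone and 136, 264, 261 and 524 CPM with both. Its joint rise of 1.77 ± 0.39 (adjusted p = 0.0309) lay below the microglia-only rise of 2.34 ± 0.40 (adjusted p = 0.0217), while its fibril-only change was -1.22 ± 0.38. Cspg4, a proteoglycan of precursors, and Lhfpl3 changed by 2.26 ± 0.45 and 2.75 ± 0.52 with both (adjusted p = 0.0172 and 0.0138) and by 2.13 ± 0.45 and 2.66 ± 0.51 with microglia alone.

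The 250 bases before the annotated start of Enpp6 are shown because it is a called lineage gene that moved beyond both single changes and its window holds a motif of the Sox family, of which Sox6, Sox8 and Sox10 were called higher. The window is chr8:46986637-46986886 (plus strand, GRCm38, RefSeq), just before the gene at positions 46986887 to 47096762, and capitals mark ACAATG.
Enpp6: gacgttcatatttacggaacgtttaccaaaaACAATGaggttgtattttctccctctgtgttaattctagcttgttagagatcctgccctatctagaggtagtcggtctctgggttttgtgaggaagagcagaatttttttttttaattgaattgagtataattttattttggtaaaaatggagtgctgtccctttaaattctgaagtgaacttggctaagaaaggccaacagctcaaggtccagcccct
ACAATG or ACAAAG, read on both strands, occurred in 25.2% of the 32851 promoter windows of this length, and in 3 of the 7 called lineage genes that had one (Cnp, Enpp6 and Olig2). A match describes the letters only.

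Among the other large rises were Abtb2 and Plppr1. Abtb2, an ankyrin-repeat and BTB-domain protein, was at 14.99, 9.93, 16.4 and 24.8 CPM in untreated neurons alone and at 195, 219, 128 and 106 CPM in loaded co-cultures, an increase of 3.29 ± 0.44 (adjusted p = 0.000777) with no overlap. Its level was intermediate in both single conditions, 50.7 to 86.0 CPM with fibrils and 66.4 to 167 CPM with microglia. Plppr1, a membrane protein of neurite growth, rose by 3.37 ± 0.66, Pllp, a myelin membrane protein, by 3.38 ± 0.64, Mex3a, an RNA-binding protein, by 3.10 ± 0.61, Cerox1, a noncoding RNA, by 3.13 ± 0.65 and Rin2, a Rab5 exchange factor, by 2.82 ± 0.62 (adjusted p 0.0162 to 0.0309). Marcks, an actin-binding substrate of protein kinase C, was the called member of 30 nanotube and actin protrusion genes (20 higher, 10 lower), with a change of 1.71 ± 0.32 (adjusted p = 0.0121). Fkbp4, a co-chaperone of Hsp90, was the called member of 24 heat shock genes (8 higher, 16 lower) and rose by 1.45 ± 0.33 (adjusted p = 0.0391). Of 26 extracellular matrix genes, 11 were higher and 15 lower, and Cspg4 and Sulf2, a sulfatase of heparan sulfate, rose. Of all tested genes 47.7% were higher by sign and 0.472% were called higher.

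Most neuronal transcripts were lower. Of 22 neuronal identity genes 20 were lower (median log2 change -1.996), with 3 called, and of 18 excitatory-neuron genes 16 were lower (median -2.58), with 1 called, against 0.32% of all genes. Among the abundant members that did not fall, Map2 was at 587 to 799 CPM in untreated neurons alone and 639 to 912 CPM in loaded co-cultures. Gria2 was at 562 to 720 CPM and 560 to 757 CPM in the same groups. All 26 presynaptic genes were lower (median -2.32) and 1 was called, as were 19 of 24 postsynaptic genes (median -1.38) with 3 called. Under microglia alone these 2 medians were -1.87 and -1.38. Nrgn is counted in both the excitatory and the postsynaptic calls. Summed excitatory-neuron levels were 9237 ± 1633 CPM in untreated neurons alone, 5219 ± 2920 CPM with fibrils, 2450 ± 1279 CPM with microglia and 1699 ± 506 CPM with both (SD, n = 4 each). Of the inhibitory-neuron genes 6 were higher and 9 lower (median -0.59), or 5 and 11 (median -1.27) without loaded co-culture replicate 1, and none of them was called. Without loaded co-culture replicate 1, the called genes of these lists were 1 neuronal, 0 excitatory, 1 presynaptic and 1 postsynaptic, with medians of -1.94, -2.27, -2.21 and -1.20.

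Thy1, a surface glycoprotein of mature neurons, was at 326, 353, 232 and 294 CPM in untreated neurons alone and at 26.3, 17.1, 48.7 and 35.8 CPM in loaded co-cultures. The groups were far apart, and the log2 change was -3.23 ± 0.43 (adjusted p = 0.000777). Nrgn, a protein of dendritic spines, had the largest fall: it was at 4765, 6335, 4459 and 6436 CPM in untreated neurons alone and at 150, 215, 586 and 413 CPM in loaded co-cultures. Its change was -4.01 ± 0.70 (adjusted p = 0.0162), and the microglia-only libraries at 117, 1200, 912 and 235 CPM overlapped the loaded co-cultures. Syn2, a synapsin of the vesicle pool, was at 253, 549, 634 and 594 CPM in untreated neurons alone and at 80.9, 58.8, 60.5 and 52.7 CPM in loaded co-cultures, with a change of -3.00 ± 0.49 (adjusted p = 0.00571). The CaMKII inhibitor gene Camk2n1 fell by 2.63 ± 0.36 on the log2 scale (adjusted p = 0.00102), from 1980 to 3432 CPM down to 342 to 556 CPM, and Grin1, the obligatory NMDA receptor subunit, changed by -2.58 ± 0.56 (adjusted p = 0.0309).

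Other falls were in signalling and proton transport. Kalrn, a guanine nucleotide exchange factor of dendritic spines, changed by -2.79 ± 0.55 (adjusted p = 0.0162). Camta2, a transcription activator, Pde2a, a cyclic nucleotide phosphodiesterase, and Olfm1, a secreted neuronal glycoprotein, changed by -2.74 ± 0.60, -2.71 ± 0.63 and -2.53 ± 0.51 (adjusted p 0.0235 to 0.0441). Subunits of the vacuolar proton pump fell: Atp6v1g2, a neuronal form, by 3.15 ± 0.68, Atp6v1e1 by 1.44 ± 0.31 and Atp6v1a by 1.09 ± 0.26 on the log2 scale (adjusted p 0.027 to 0.0488). Atp6v1e1 and Atp6v1a belong to a list of 32 lysosome genes, of which 15 were higher and 17 lower (17 and 15 with library totals), and neither passed without loaded co-culture replicate 1. Of 28 genes of the axonal cytoskeleton and its transport 25 were lower (median -1.50). The kinesin heavy chains Kif5a and Kif5c and the tubulin-binding Stmn3 fell, by 1.73 ± 0.38, 2.33 ± 0.44 and 2.12 ± 0.49 (adjusted p 0.0132 to 0.0417). Of all tested genes 52.2% were lower by sign and 0.32% were called lower.

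**Figure D2:**
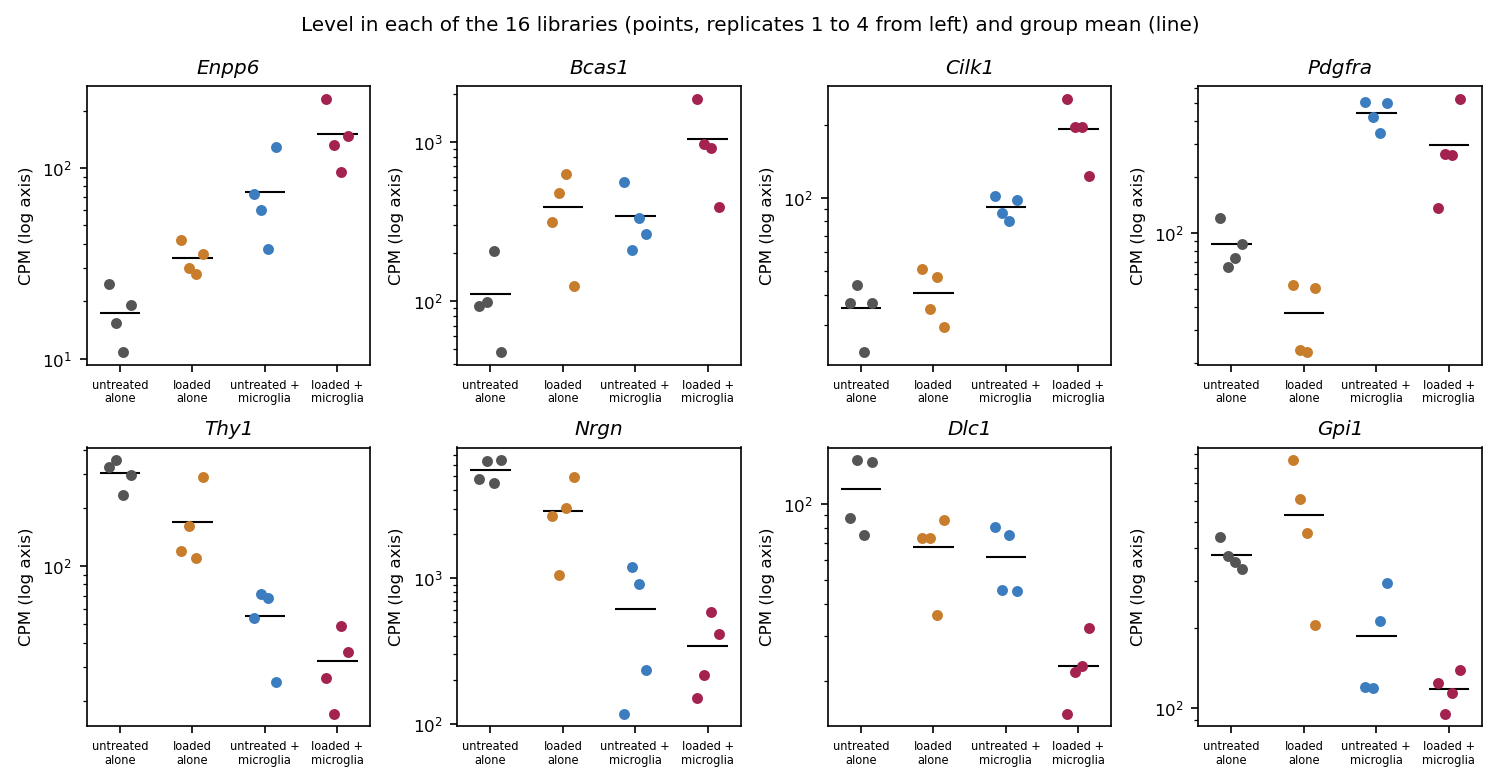
CPM (log axis) of 8 genes in each of the 16 libraries, by group, with replicates 1 to 4 from left to right and the group mean as a line. For Enpp6, Bcas1 and Cilk1 the loaded co-cultures have the highest group mean and for Dlc1 the lowest, whereas Pdgfra is higher with microglia alone (342 to 504 CPM) than its 136 CPM in loaded co-culture replicate 1.

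Of 21 genes on a list of Parkinson's disease genes 7 were higher and 14 lower. The list had 2 called genes, against 0.792% of all tested genes, and they moved in opposite directions. Fbxo7, a ubiquitin ligase adaptor mutated in early-onset parkinsonism, was at 30.7 to 41.1 CPM in untreated neurons alone and at 254, 156, 75.0 and 94.5 CPM in loaded co-cultures, a rise of 2.07 ± 0.43 (adjusted p = 0.0211) without overlap. Uchl1, a neuronal ubiquitin hydrolase, changed by -1.88 ± 0.41 (adjusted p = 0.0309). Without loaded co-culture replicate 1 neither passed, nor did any gene of the axonal or heat shock lists.

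Glycolysis and hypoxia genes were lower in 22 of 23 cases, with a median of -1.16, and 4 fell by the test. Of all tested genes 52.2% were lower by sign and 0.32% fell by the test. Gpi1, which turns glucose 6-phosphate into fructose 6-phosphate, was at 440, 374, 354 and 334 CPM in untreated neurons alone and at 124, 95.2, 114 and 140 CPM in loaded co-cultures, with a change of -1.67 ± 0.37 (adjusted p = 0.0337). Its fibril-only libraries, at 853, 612, 455 and 206 CPM, ran to higher levels than the untreated ones. Bnip3, a mitophagy receptor induced by low oxygen, was at 97.2, 292, 168 and 204 CPM in untreated neurons alone and at 15.5, 38.9, 39.7 and 26.6 CPM in loaded co-cultures (-2.66 ± 0.51, adjusted p = 0.0138). The fructose bisphosphate aldolase Aldoa and the triosephosphate isomerase Tpi1 changed by -1.83 ± 0.37 and -2.05 ± 0.44 (adjusted p = 0.0172 and 0.027). None of the 4 passed without loaded co-culture replicate 1, where the list median was -1.23, and 2 passed without replicate 1 of both co-culture groups. The symbol Aldoa matches 2 annotated genes, so its reads cannot be assigned to one of them.

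The start regions of Bnip3, Aldoa and Gpi1 are shown because these called genes fell and hypoxia-responsive genes carry the core ACGTG, marked in capitals on either strand. The windows are the 250 bases upstream of an annotated start on the minus strand of GRCm38 (RefSeq): chr7:138909507-138909756, chr7:126799255-126799504 and chr7:34230337-34230586.
Bnip3: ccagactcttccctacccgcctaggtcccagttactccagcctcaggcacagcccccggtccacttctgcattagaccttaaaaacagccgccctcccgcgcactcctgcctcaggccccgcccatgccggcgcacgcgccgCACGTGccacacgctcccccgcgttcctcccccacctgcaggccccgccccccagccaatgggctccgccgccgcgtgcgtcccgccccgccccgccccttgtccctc
Aldoa: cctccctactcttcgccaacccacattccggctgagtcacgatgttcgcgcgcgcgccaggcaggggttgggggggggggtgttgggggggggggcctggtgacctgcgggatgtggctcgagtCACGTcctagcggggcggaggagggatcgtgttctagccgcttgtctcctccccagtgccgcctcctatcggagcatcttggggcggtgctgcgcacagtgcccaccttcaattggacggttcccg
Gpi1: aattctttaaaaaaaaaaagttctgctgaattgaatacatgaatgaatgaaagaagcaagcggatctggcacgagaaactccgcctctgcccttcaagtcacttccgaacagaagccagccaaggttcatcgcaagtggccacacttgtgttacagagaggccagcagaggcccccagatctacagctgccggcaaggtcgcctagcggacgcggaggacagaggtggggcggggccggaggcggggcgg
ACGTG, read on both strands, occurred in 16.6% of the 32851 windows. Bnip3 held 2 matches, which overlap in CACGTG, Aldoa held 1, and Gpi1 and Tpi1 held none. Aldoa had 3 annotated starts, of which 2 had a match. Its window was picked by least overlap with untranslated regions and then by most matches, unlike the windows behind the 16.6%. Nothing about a factor follows from letters in these windows.

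Several lists had no called gene, against 0.792% of all genes, and are given by their counts. Cell cycle genes were higher in 23 of 24 cases with a median of 1.25, below the 1.84 of microglia alone, and the summed level was 727 to 2389 CPM against 412 to 1200 CPM in untreated neurons alone. Top2a, the topoisomerase of dividing cells, was at 48.7 to 191 CPM in untreated neurons alone and 131, 358, 516 and 422 CPM in loaded co-cultures (log2 change 1.71 ± 0.59, adjusted p = 0.234). Astrocyte genes were lower in 17 of 18 cases (median -0.72), with a median of 0.64 under fibrils alone, and Slc1a2, the main glial glutamate transporter, was at 975 to 2364 CPM in untreated neurons alone and 256 to 1499 CPM in loaded co-cultures. Oxidative phosphorylation genes were lower in 43 of 45 cases (35 of 45 with library totals as the scaling) with a median of -0.33, and -0.34 under microglia alone. Ribosomal protein genes were higher in 47 of 50 (median 0.51, and 0.55 under fibrils alone). Immediate early genes, which follow neuronal activity, were lower in 23 of 25 (median -1.55). Nrf2 antioxidant genes had 12 higher and 16 lower (median -0.14, and 0.00315 with library totals), with a median of 1.04 under fibrils alone. Interferon response genes had 16 higher and 8 lower (median 0.64, and 0.88 under microglia alone). Cytokine genes had 7 and 11 (median -0.59, and -0.95 under fibrils alone), and integrated stress response genes 4 and 17 (median -0.88). Autophagy genes had 10 and 14 (median -0.10, -0.18 under microglia alone, and 0.03 with library totals). Cholesterol synthesis genes had 10 and 12 (median -0.13, and 0.03 with library totals). Microglial genes were higher in 12 of 13 tested, with a median of 5.55 that was 0.65 without loaded co-culture replicate 1.

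**Figure D3:**
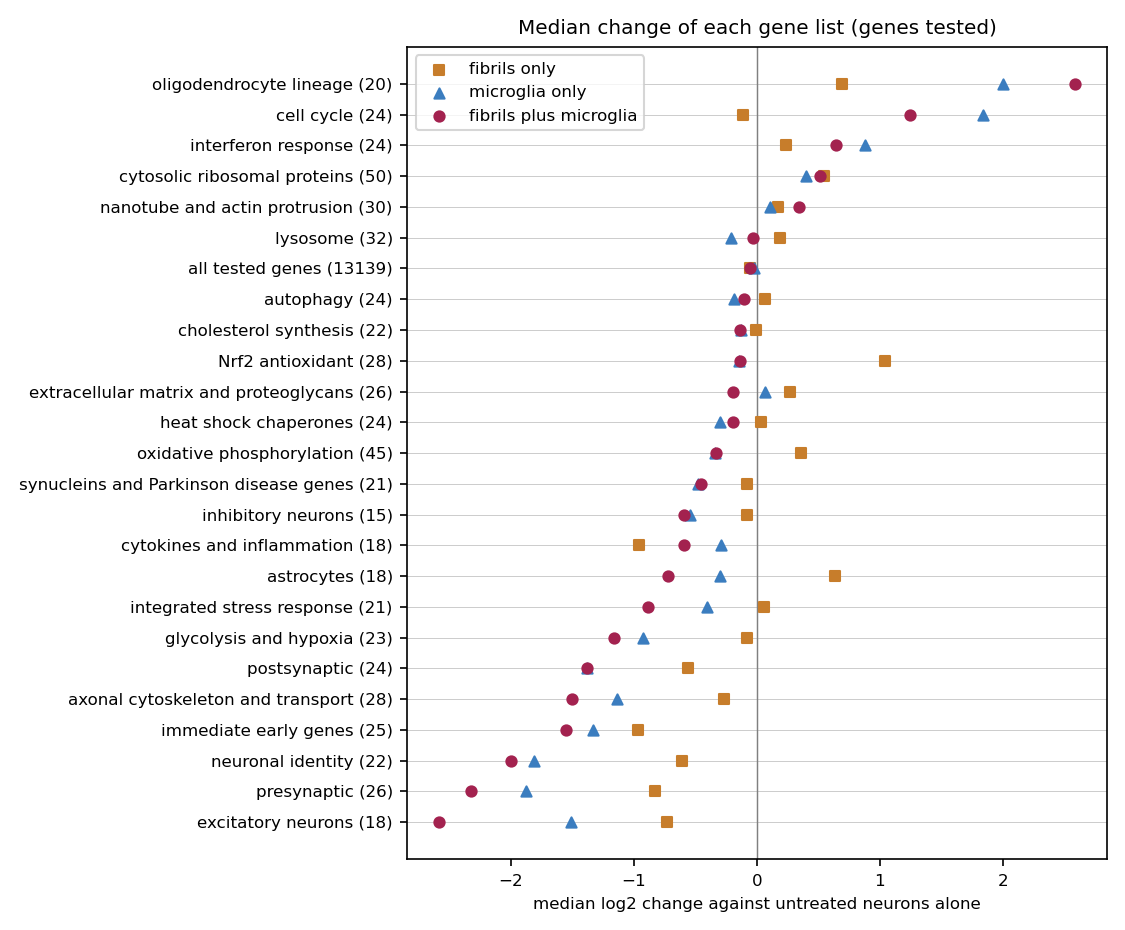
Median log2 change against untreated neurons alone of 24 gene lists and of all tested genes under fibrils only, microglia only and both, with the number of genes tested in brackets (the microglial and the vessel list are not drawn). The oligodendrocyte list reads 0.69, 2.00 and 2.59, the excitatory-neuron list -0.73, -1.51 and -2.58, and the cell cycle list -0.11, 1.84 and 1.25.

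Which genes moved by more than either single condition was asked next. The joint change and both single changes share the untreated libraries, so their values are set side by side and no correlation between them is given. No gene was called under fibrils alone by edgeR (909 at an unadjusted p under 0.05, 6.92%; DESeq2 called 173, limma-voom none, and edgeR 7 without loaded neurons alone replicate 4), and 16 (0.122%) were called under microglia alone, 9 higher (0.0685%) and 7 lower (0.0533%), 12 of them among the 104. The microglia-only count was unstable. It was 0 without untreated replicate 2 or 3, without untreated co-culture replicate 1, or without replicate 1 of both co-culture groups. It was 1 without untreated replicate 4, 2 and 7 without untreated co-culture replicates 4 and 2, and 6, 6 and 8 without loaded co-culture replicates 2, 3 and 4. It was 39 without untreated replicate 1 and 34 without loaded neurons alone replicate 4, 50 with library totals, 76 with limma-voom and 295 with DESeq2. At an unadjusted p under 0.05 the microglia-only change passed in 98 of the 104 (9.1% of all genes) and the fibril-only change in 39. The 104 were chosen against the same untreated libraries, which raises such counts, so these and the following values only describe the genes. In the direction of the joint change, the 104 genes had a median log2 change of 0.71 under fibrils and 1.62 under microglia. The microglia-only change was the larger of the single changes in 98 of the 104 and had the direction of the joint change in all of them. The fibril-only change had the opposite direction in 9.

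**Figure D4:**
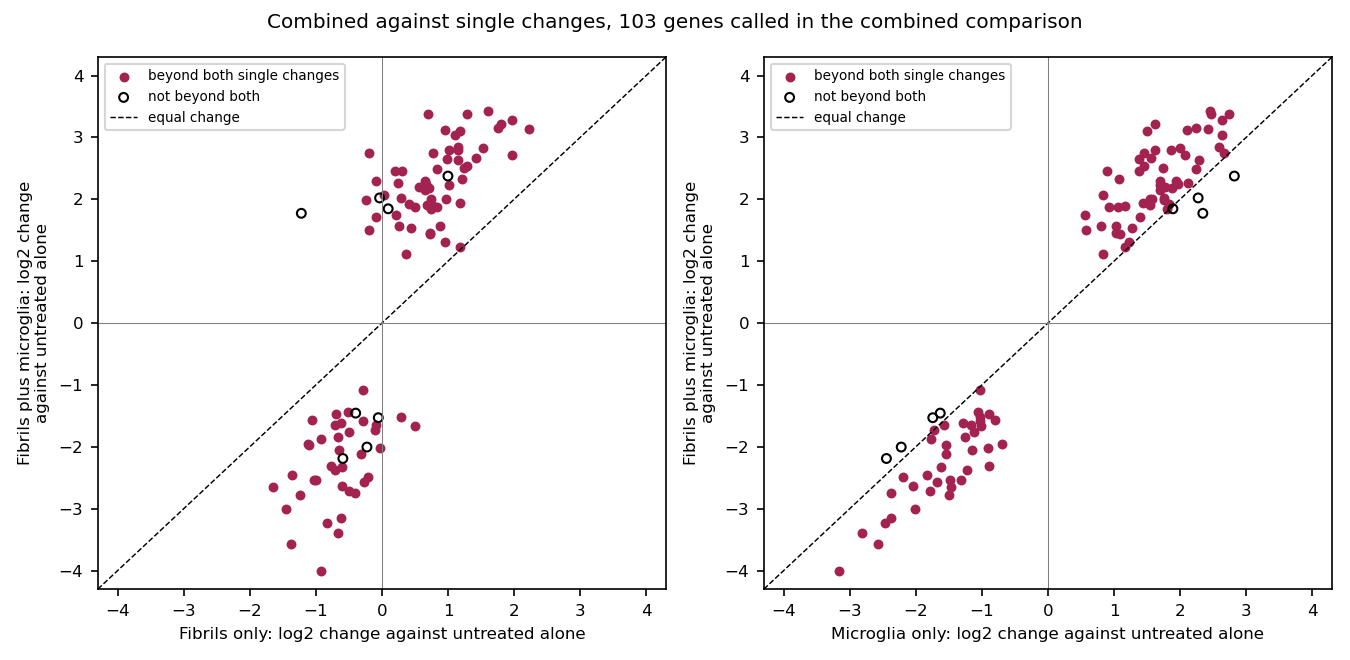
Log2 change with fibrils plus microglia (vertical) against the log2 change with fibrils only (left) and microglia only (right) for 103 of the 104 called genes, all against untreated neurons alone (Kif14, at 0 in all untreated libraries, is not drawn). Filled points lie beyond both single changes and the dashed line marks equal change; the points lie farther from the line on the left than on the right.

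By estimate, 95 of the 104 called genes (91.3%) lay beyond both single changes, 57 higher and 38 lower, where 50.8% of all tested genes did. Without loaded co-culture replicate 1 the count of 95 became 30. Since the called genes were chosen for a large joint change, a high share follows in part from that choice. By a margin of at least 0.5 on the log2 scale there were 59 (56.7%; 32 higher, 27 lower), against 23.2% of all tested genes. The excess over both was then tested by comparing loaded co-cultures directly with untreated co-cultures and with loaded neurons alone, taking the larger p of the pair. No gene passed by edgeR (smallest unadjusted p 0.00115, smallest adjusted p 1), with limma-voom or with limma on the authors' normalized values, and DESeq2 called 75. Both differences had an unadjusted p under 0.05 in 205 genes (1.56%), among them 24 of the 104. The comparison with untreated co-cultures was the narrower one. At an unadjusted p under 0.05, 27 called genes passed there, where 3.68% of all tested genes did. In the comparison with loaded neurons alone 86 passed, where 1540 of all tested genes (11.7%) did. Over all genes edgeR called none in the first (483 at an unadjusted p under 0.05, 3.68%; DESeq2 130) and 15 in the second (0.114%; 9 higher, 0.0685%, and 6 lower, 0.0457%), of which 11 were among the 104. The count of 15 became 4, 1 and 2 without loaded co-culture replicates 1, 2 and 3, and 9, 9 and 7 without loaded neurons alone replicates 1, 2 and 3. It was 9 without untreated replicate 2, 27 without untreated replicate 1, 23 without untreated co-culture replicate 1 and 26 without loaded neurons alone replicate 4. Library totals gave 31, limma-voom 41 and DESeq2 492.

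The 24 genes with both unadjusted p under 0.05 were 16 that rose and 8 that fell. The rising ones were Amz1, Bcas1, Bmp4, Chn2, Cilk1, Cldn11, Enpp6, Fbxo7, Fyn, Itpr2, Mex3a, Prox1, Sirt2, Soga1, Sulf2 and Vxn. The falling ones were Ap2a2, Bcl11a, Camk2d, Dlc1, Kalrn, Olfm1, Syn2 and Tpi1. A further 35 lay beyond both by at least 0.5 without meeting that p. Of these 16 rose (Abtb2, Cerox1, Cnp, Col11a1, Gpr17, Mfsd2a, Mpzl1, Mtss1, Pllp, Plppr1, Ppp1r16b, Rin2, Rps3a1, Septin8, Shisal1 and Sox6). The other 19 fell (among them Aldoa, Atp6v1g2, Bnip3, Camk2n1, Chrm1, Ensa, Gpi1, Grin1, Itm2c, Kif5c, Klf6, Nptn, Nrgn, Pde2a, Ssbp3, Stmn3, Tacc1 and Thy1). In the last 36 the excess was under 0.5. They were 25 that rose (C1ql1, Cdk2ap1, Cspg4, Enpp2, Fkbp4, Fxyd6, Klhl5, Lbh, Lhfpl3, Lima1, Map4k4, Marcks, Matn4, Nnat, Nono, Olig1, Olig2, Papss1, Phldb1, Scrg1, Sema4c, Sh3d19, Sox10, Sox8 and Traf4) and 11 that fell (among them Atp6v1a, Atp6v1e1, Camta2, Cpeb3, Kif5a, Pakap, Pdhb, Ppp3ca, Prkar1b and Uchl1).

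There were 5 called genes with loaded co-culture levels beyond all 12 other libraries, 4 above and 1 below, where 22 tested genes (0.167%) lay above and 7 (0.0533%) below. Cilk1, a kinase of primary cilia, was at 256, 196, 196 and 123 CPM in loaded co-cultures, and the other libraries were at 23.1 to 43.8 CPM without either agent, 29.4 to 51.0 CPM with fibrils and 80.5 to 102 CPM with microglia. The joint rise was 2.45 ± 0.36 (adjusted p = 0.0018), against 0.20 ± 0.34 with fibrils and 1.38 ± 0.35 with microglia. It exceeded the microglia-only level by 1.07 ± 0.35 (unadjusted p = 0.00516) and the fibril-only level by 2.25 ± 0.36 (adjusted p = 0.0149). Dlc1, a GTPase-activating protein, was at 14.8, 21.8, 22.9 and 32.3 CPM in loaded co-cultures and nowhere below 36.5 CPM in the other 12 libraries. Its joint change was -2.32 ± 0.43 (adjusted p = 0.0121), against -0.76 ± 0.41 and -0.89 ± 0.41 with fibrils and with microglia.

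Fyn, a Src-family kinase needed for myelination, was at 986, 798, 843 and 730 CPM in loaded co-cultures and reached 695 CPM at most elsewhere, in an untreated co-culture. Its rise was 1.57 ± 0.30 (adjusted p = 0.0138), with single changes of 0.26 ± 0.29 and 0.80 ± 0.30. Vxn, a regulator of neural differentiation, was at 769, 611, 410 and 373 CPM in loaded co-cultures, above the 350 CPM of the highest untreated co-culture, and rose by 1.75 ± 0.40 (adjusted p = 0.0408). Sulf2 was at 314, 454, 387 and 295 CPM in loaded co-cultures, above the 273 CPM of the highest untreated co-culture, and rose by 1.496 ± 0.33 (adjusted p = 0.0309). Hipk2, a nuclear kinase, also lay above all 12 other libraries (126 to 305 CPM against 27.9 to 101 CPM), but its joint change of 1.69 ± 0.43 did not pass (adjusted p = 0.0701).

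Sirt2, a deacetylase abundant in oligodendrocytes, was at 893, 808, 582 and 331 CPM in loaded co-cultures and at 84.1 to 151 CPM in untreated neurons alone, a rise of 2.33 ± 0.37 (adjusted p = 0.00388). Fibrils and microglia alone gave 1.21 ± 0.35 and 1.08 ± 0.35, so the joint change was close to their sum. Prox1, a homeobox transcription factor, was at 140, 74.5, 103 and 35.1 CPM in loaded co-cultures and 14.2 to 17.2 CPM in untreated neurons alone, with single changes of 0.30 ± 0.52 and 0.90 ± 0.52 and a joint rise of 2.45 ± 0.54 (adjusted p = 0.0316). Bmp4, a secreted signal of the lineage's differentiation, rose by 2.75 ± 0.51, Cldn11, a tight junction protein of myelin, by 2.79 ± 0.57 and Itpr2, a calcium channel of committed precursors, by 2.53 ± 0.50 (adjusted p 0.0121 to 0.0188). The Cldn11 level of 31.9 CPM in loaded co-culture replicate 1 lay below all 4 untreated co-cultures (41.7 to 74.5 CPM). Among the falls, Bcl11a, a transcription factor of cortical projection neurons, was at 14.5, 4.12, 15.2 and 30.7 CPM in loaded co-cultures and 51.6 to 136 CPM in untreated neurons alone (-2.38 ± 0.57, adjusted p = 0.0487). Ap2a2, a subunit of the clathrin adaptor, changed by -2.02 ± 0.48 with both (adjusted p = 0.0479), by -0.03 ± 0.47 with fibrils and by -0.91 ± 0.47 with microglia. A pair of further genes ranked high in the test of the excess without a called joint change: Pam, an enzyme of peptide amidation (-2.31 ± 0.56, adjusted p = 0.0509), and the pseudogene Atp6v0c-ps2 (-2.06 ± 1.10, adjusted p = 0.444), whose reads may be shared with its parent gene.

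**Figure D5:**
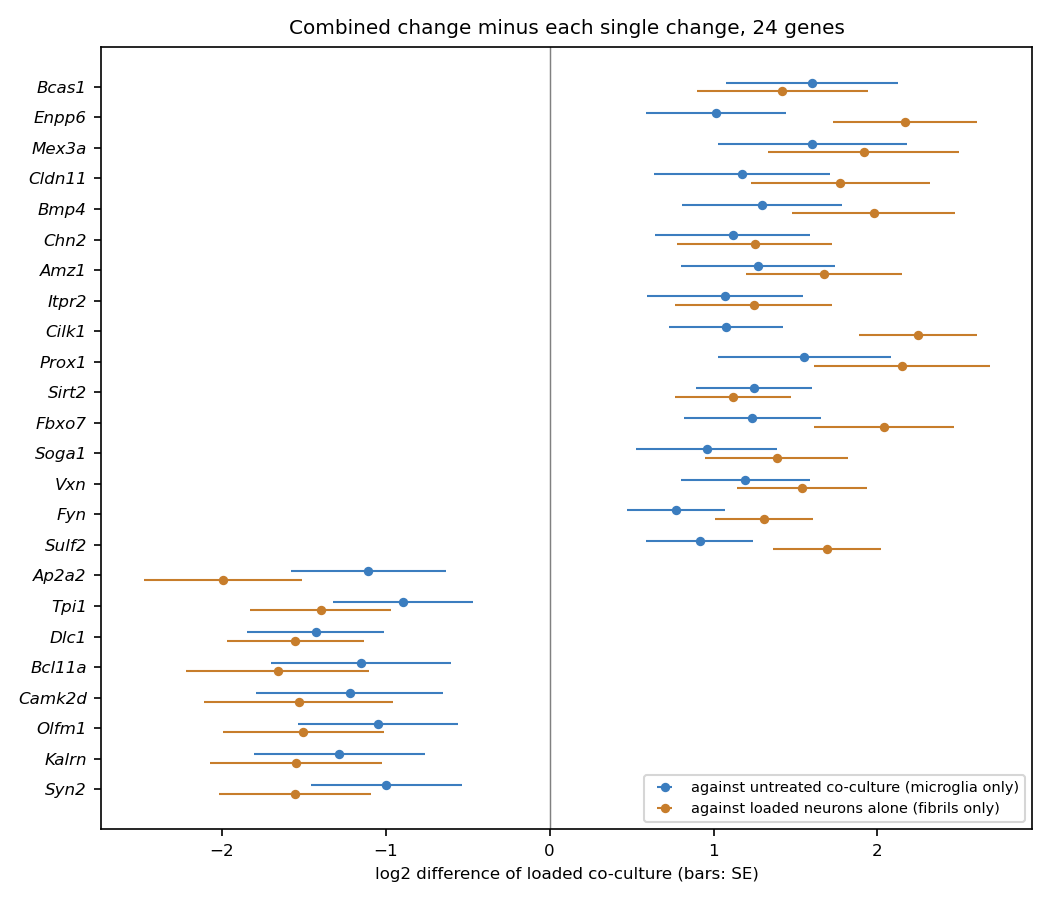
Log2 difference of loaded co-cultures from untreated co-cultures (blue) and from loaded neurons alone (orange) with SE bars, for the 24 called genes with both unadjusted p under 0.05. All differences have the direction of the joint change, such as 1.07 and 2.25 for Cilk1 and -1.43 and -1.55 for Dlc1, and no gene passed the adjusted test of both.

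Of the called genes, 9 did not move beyond both, and in all 9 the microglia-only estimate was the larger. Besides Pdgfra these were Cacng4, an AMPA receptor auxiliary subunit (1.85 ± 0.35 with both, 1.89 ± 0.35 with microglia), Lmnb1, a lamin (2.02 ± 0.45 and 2.27 ± 0.45), Sh3bp4, an endocytic protein (2.38 ± 0.50 and 2.82 ± 0.51), and Kif14, a mitotic kinesin. Kif14 was at 0 in all 4 untreated libraries and at 2.84 to 28.4 CPM in loaded co-cultures, a log2 change of at least 7.48 against a floor of 3 counts over the group. The falling ones were Actr3b, Eef1a2, Ywhag and 1110008P14Rik, with joint changes of -2.004 ± 0.43, -2.19 ± 0.51, -1.46 ± 0.32 and -1.53 ± 0.36. Their microglia-only changes were -2.22 ± 0.43, -2.45 ± 0.52, -1.63 ± 0.33 and -1.74 ± 0.36.

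Whether the joint change departed from the sum of the single changes was tested as an interaction. No gene passed by edgeR (529 at an unadjusted p under 0.05, 4.03%; smallest adjusted p 0.99998), and DESeq2 called 187. In the direction of the joint change, the 104 genes departed from the sum by a median of -0.12. The list medians that follow keep the plain sign, so that a negative value lies below the sum whatever the direction of the joint change. The oligodendrocyte list had a median departure of -0.02. The excitatory-neuron list had -0.13, which is in the direction of its joint fall. The median was -1.06 for Nrf2 antioxidant genes and -1.18 for astrocyte genes. Fth1, the ferritin heavy chain and an abundant Nrf2 target, was at 1755 to 5231 CPM in untreated neurons alone, 2020 to 8631 CPM with fibrils, 1232 to 2956 CPM with microglia and 1115 to 2012 CPM with both. The fibril-only libraries lay just above those with both, and the other pairs of groups overlapped. A missing call does not show that the joint change equals the sum. For Cilk1 and Dlc1, for example, the simpler excess over the larger single change already had a standard error of 0.35 and 0.42. The interaction takes in all groups, and its own standard errors are not given here.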

How the data were processed

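RNA of 16 libraries was measured with a QuantSeq forward kit, which reads 3′ ends, per the labels' protocols. Reads were handled with STAR, Partek and DESeq2 on mm10, per the submitters' processing notes; for versions, annotation and strand setting these sources give nothing. Raw counts were deposited by the authors for 16934 genes, and served as the input. A second deposited table, a score obtained by normalizing and rounding the same genes, served as an alternative. Counts were fitted in R 4.3.3 with edgeR 4.0.16: filterByExpr (minimum count 10, minimum total 15), TMM, and 1 robust quasi-likelihood fit of all 16 libraries with group means. The calling threshold was 0.05 for p adjusted (Benjamini-Hochberg) over the 13139 tested genes. The standard error is the log2 change divided by the square root of F. Alternatives used DESeq2 1.42.0, limma 3.58.1, other scalings and filters, and left-out libraries. The scripts were tested on simulated data. Groups came from the treatment labels; replicate numbers name runs of library codes. No 2 libraries of a group agreed within sampling noise. Positions were taken from GENCODE M21 and promoters from RefSeq on GRCm38 (97.3% of symbols matched 1 gene), and counting intervals would cover counting error only.

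Named genes were the largest 12 called rises and 12 called falls above a mean log2 CPM of 2 without overlap, the 10 with the smallest larger p of both differences, up to 4 called members of each list, and abundant members of lists; not all abundant members are printed, and a few named or called genes are not reported here. The remaining called genes, Col11a1 and Ensa among them, and the genes beyond all other libraries were named after their values were seen. The members and the 26 gene lists were chosen with earlier results of these data known.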

Additional observations from a re-analysis of the deposited data

Results flagged for a closer look

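Over 280 sets of 4 library values (the named genes and the cell type sums in untreated neurons alone and in loaded co-cultures), 20 (7.14%) held a library whose gap to its nearest neighbour exceeded the critical value of Dixon's test on the log2 scale, where chance gives about 1 in 20. Most were untreated library replicate 1. It was high for Aldoc (2118 CPM, others 512 to 628), Rorb (828 CPM), Enpp2 (149.8 CPM), Lima1 (64.3 CPM), 1110008P14Rik (265 CPM) and the astrocyte sum (15216 CPM, others 4857 to 5704), and held 1.17 CPM of Ctss and 0.937 CPM of Laptm5 where the others had 0. The same library was low for Syn2 (253 CPM, others 549 to 634), Uchl1 (198 CPM), Chrm1 (18.4 CPM, others 112 to 153), Pakap (163 CPM) and Prkar1b (286 CPM). The single low or high values elsewhere among untreated libraries were Sirt2 at 84.1 CPM in replicate 2, Klf6 at 283 CPM in replicate 3 and Hmgb2 at 37.2 CPM in replicate 4.

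Among loaded co-cultures, replicate 1 was high for Csf1r (287 CPM, others 0 to 0.336) and low for Atp5g3 (674 CPM, others 1345 to 1395). Replicate 2 was low for Cpeb3 (14.1 CPM, others 31.8 to 37.0) and high for Ppp1r16b (164 CPM, others 86.2 to 95.9).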

How the results depend on the processing

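The 104 called genes became 637 with DESeq2 (278 higher, 359 lower), 158 with limma-voom, 167 with limma on the authors' normalized values, 66 against a fold of 1.2, and 60 without replicate 1 of both co-culture groups. The 95 genes beyond both single changes by estimate became 523 with DESeq2, 153 with limma on the normalized values, 58 without both libraries and 59 by a margin of 0.5. The test of the excess over both gave 0 throughout except 75 with DESeq2, and the interaction 0 except 187 with DESeq2; the cause was not tested. Leaving out 1 library gave 13 to 169 called genes, 13 to 146 beyond both by estimate, and 0 for both other tests. With library totals the split was 83 higher and 26 lower, shifting the all-gene median from -0.05 to 0.08 (log2). Medians of the Nrf2, autophagy, lysosome and cholesterol lists changed sign there (to 0.00315, 0.03, 0.09 and 0.03). The log2 change of Csf1r, not called, ranged from -3.85 (without loaded co-culture replicate 1) to 9.25 (without untreated replicate 3) and was -2.21 with the replicate block. A replicate block gave 207 called genes and 188 beyond both by estimate. The numbers come from runs of library codes. Same-numbered libraries of different groups correlated at -0.11 to 0.22 in their deviations (mean 0.04), and different-numbered ones at -0.23 to 0.16 (mean -0.01). Of the libraries, 9 of 16 matched their own number best, and whether a number marks a shared batch was not tested. The interaction could not be fitted from only 2 groups. Depth limits low genes, and Kif14 has a lower bound only, which rests on untreated counts of 0 that need not mean absence.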
